A study of Danio rerio with 6 samples.

Results

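The genes described are those of the mitochondrial ribosomal proteins in adult zebrafish brain, measured after exposure to low oxygen and at ambient oxygen. Members were the genes whose platform symbol starts with mrpl (large subunit) or mrps (small subunit) followed by a digit, taken from array rows that name a single gene. There were 68 such genes of 19260 genes in all, 44 with the large and 24 with the small subunit prefix, measured by 74 rows. Fish were adults of the Tübingen strain, about 1 year old, of unspecified sex, and 1 whole brain was hybridised per Affymetrix Zebrafish Gene 1.0 ST array. The hypoxia group held 3 fish kept for 3 h in water bubbled with nitrogen, which held dissolved oxygen of 1.20 ± 0.6 mg/l, and the normoxia group held 3 fish in water with the usual 6.6 ± 0.45 mg/l (what these errors are is not stated by the labels). Both groups are called by number below, hypoxia 1 to 3 and normoxia 1 to 3.

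Mitochondria carry ribosomes of their own, which translate the few proteins encoded by the mitochondrial genome, all of them core subunits of the respiratory chain and ATP synthase. Their RNAs are encoded in the mitochondrion, while every protein of both subunits is encoded in the nucleus and imported. The large subunit holds the peptidyl transferase centre and the exit tunnel, and the small subunit holds the decoding centre. Some members descend from bacterial ribosomal proteins and others were added in the mitochondrial lineage. The brain depends on oxidative phosphorylation, whose assembly needs these ribosomes.

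Mitochondrial ribosomal protein genes had mostly lower means in hypoxia brains, and no member passed the threshold. Of the 68 members 64 had a lower mean in hypoxia, against 61% of all genes and 76.8% of genes above the median level. The median log2 difference, hypoxia minus normoxia, was -0.35 over the members and -0.08 over all genes. With limma, adjusted by Benjamini-Hochberg over all genes, 0 members passed 0.05, and 0.00519% of genes did (1 gene, no member). At an unadjusted p under 0.05 there were 16 members lower and 0 higher, where 5.76% of all genes were lower and 0.903% higher. Without hypoxia 1 these 16 became 2, without normoxia 1 they became 8, and without normoxia 2 they became 29, while 0 members passed after adjustment in any of these fits. The count over all genes, in either direction, moved with them, at 507 without hypoxia 1, 776 without normoxia 1 and 4747 without normoxia 2, against 1283 with all arrays. Values of the groups did not overlap in 19 members, each lower in hypoxia, which is 27.9% of members against 9.01% of all genes and 11.7% of genes above the median level. Non-overlap in the other direction occurred in 0 members and in 2.33% of all genes.

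**Figure D1:**
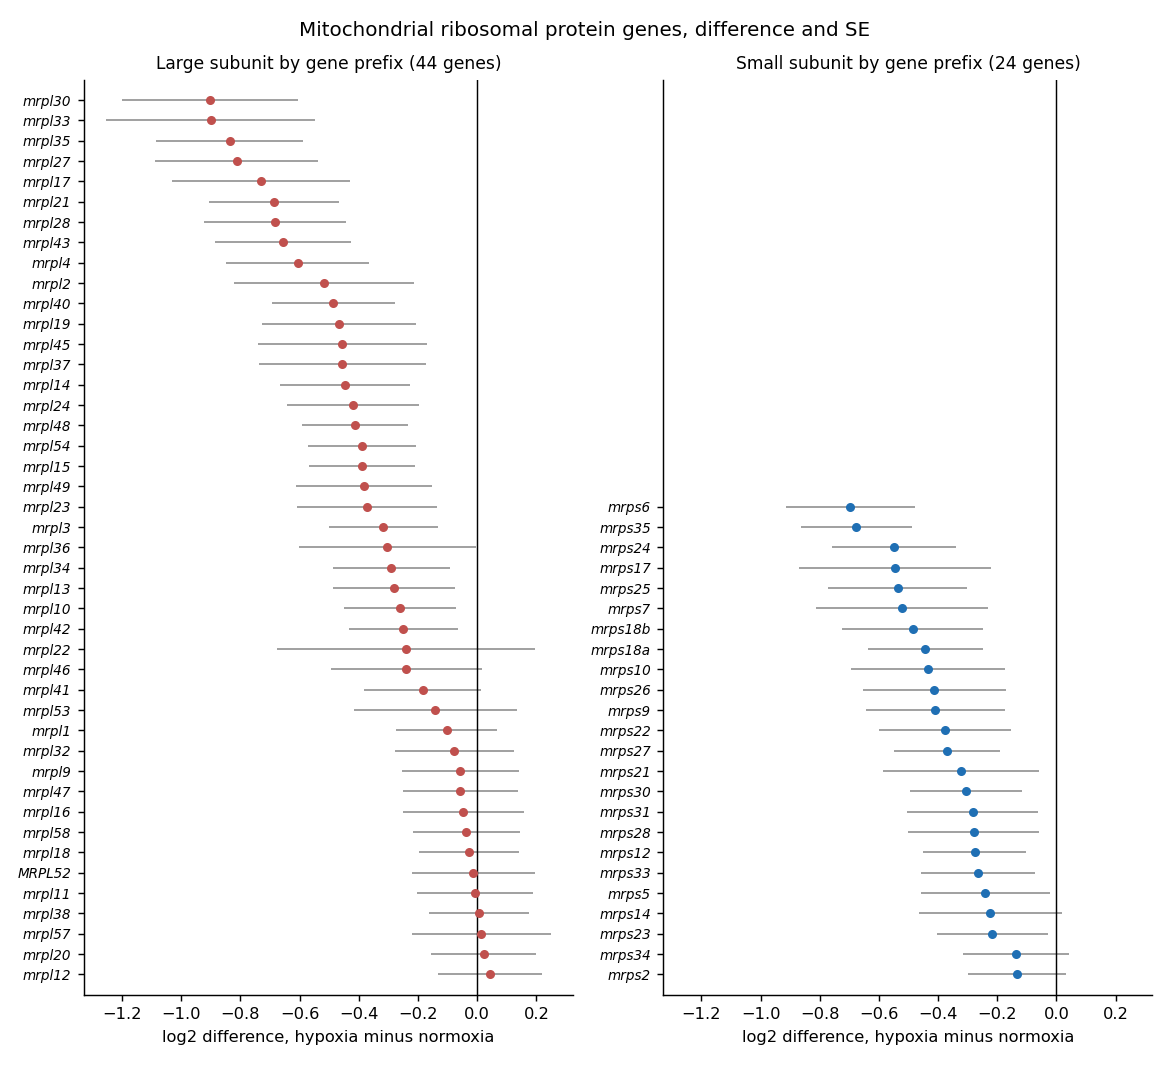
Each point is the log2 difference, hypoxia minus normoxia, of 1 gene and each bar its standard error from limma (n = 3 brains per group), with the 44 large subunit genes on the left and the 24 small subunit genes on the right. All 24 small subunit genes and 40 of the 44 large subunit genes lie left of 0 (22 and 31 of them with equal array medians), and the large subunit genes range from -0.90 to 0.04.

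Brains were set side by side with a score: each member's log2 value was centred on its own mean over the 6 arrays, and the centred values were averaged over members. The score of all 68 members was -0.28 in hypoxia 1, -0.17 in hypoxia 2 and -0.08 in hypoxia 3, against 0.40 in normoxia 1, 0.01 in normoxia 2 and 0.13 in normoxia 3. Scores of the groups did not overlap, but normoxia 2 lay nearer to hypoxia 3 than to normoxia 1. Normoxia 1 held the highest value in 44 of 68 members (64.7%, against 40.9% of all genes), and hypoxia 1 the lowest value in 34 of 68 (50.0%, against 26.8% of all genes). Members varied more among normoxia than among hypoxia brains, with a median within-group SD of 0.18 in hypoxia and 0.26 in normoxia. This was shared by all genes, where the medians were 0.19 in hypoxia and 0.30 in normoxia.

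Medians of all gene values were lower in every hypoxia array, as these scores were. The SD of normoxia 2 lay within the hypoxia range, and within each group the SD ordered the brains as the member score did. The median of all gene values was 7.33, 7.32 and 7.38 in the 3 hypoxia arrays and 7.60, 7.40 and 7.45 in the 3 normoxia arrays, and the SD of gene values was 1.25, 1.34 and 1.42 in hypoxia arrays and 1.60, 1.27 and 1.47 in normoxia. Shifting all arrays to 1 common median moved the median log2 difference of all genes from -0.08 to 0.06 and left 53 members lower, against 40.9% of all genes. After quantile normalization of gene values 58 members were lower, against 48.1% of all genes. The score of all members was then -0.12 ± 0.07 in hypoxia brains and 0.12 ± 0.08 in normoxia brains (SD, n = 3), and the groups did not overlap. With array spread (this SD) as a covariate 62 members were lower, against 58.1% of all genes. The large subunit median was then -0.22 and the small subunit median -0.23. The part of array spread in the scores was not tested. Without normoxia 1 the values as deposited gave 60 members lower, with a large subunit median of -0.22 and a small subunit median of -0.21.

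Large and small subunit genes had similar differences, with the median of the small subunit slightly lower. The large subunit median log2 difference was -0.31, with a middle range (25th to 75th percentile) of -0.47 to -0.07, and the small subunit median was -0.37, with a middle range of -0.50 to -0.27. Scores of the large subunit were -0.27, -0.17 and -0.07 in hypoxia 1 to 3, against 0.39, 0.01 and 0.11 in normoxia 1 to 3. Scores of the small subunit were -0.28, -0.19 and -0.10 in hypoxia, against 0.41, 0.01 and 0.15 in normoxia. Both subunits ordered the 6 brains in the same way, with hypoxia 1 lowest and normoxia 1 highest.

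Within each brain the score of the large subunit minus that of the small subunit was small. It was 0.01, 0.02 and 0.03 in hypoxia 1 to 3, against -0.02, -0.01 and -0.04 in normoxia 1 to 3. With the values as deposited and subunits by prefix the groups did not overlap in this measure. Means were 0.02 ± 0.01 in hypoxia and -0.02 ± 0.02 in normoxia (SD, n = 3), a difference of 0.04 that was not tested. With subunits assigned from the mammalian mitoribosome structure, where the products of mrps30 and mrps18a sit in the large subunit, the difference was 0.04 as well. The groups overlapped under that assignment, with large minus small greater in normoxia 2 than in hypoxia 1. Large and small subunit scores by structure were -0.280 and -0.274 in hypoxia 1, and 0.0144 and -0.0014 in normoxia 2. Groups did not overlap in 12 of 44 large subunit genes and in 7 of 24 small subunit genes, all of them lower in hypoxia, against 9.01% of all genes. After quantile normalization the groups overlapped in large minus small, which was greater in normoxia 2 than in hypoxia 3. Large and small subunit scores were then 0.063 and 0.041 in normoxia 2, and -0.052 and -0.063 in hypoxia 3.

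**Figure D2:**
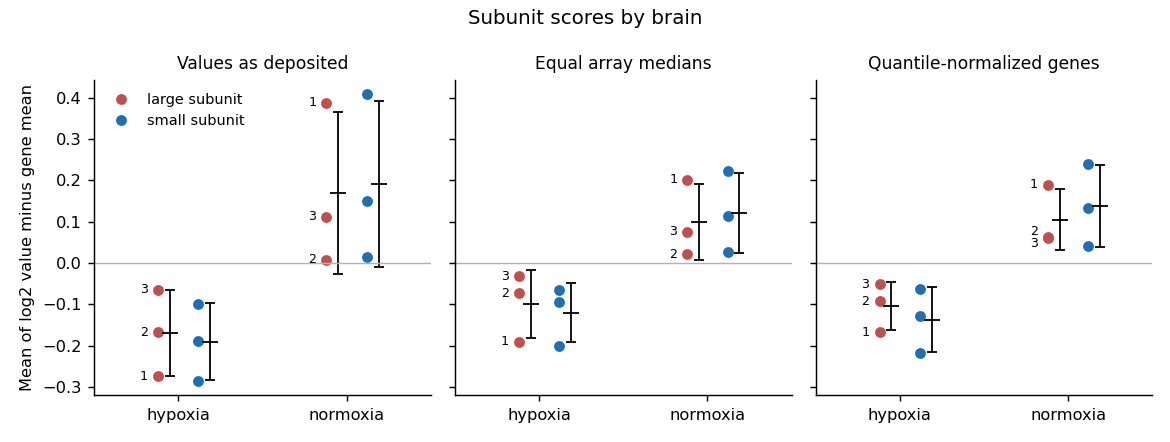
Points give the score of each brain (log2 values centred gene by gene on the mean of the 6 brains, then averaged over genes) for the large and the small subunit, numbered by fish, with mean and SD beside them (n = 3), for the values as deposited and for both rescalings. Normoxia 1 is highest in every panel, and with the deposited values normoxia 2 lies at 0.01 for both subunits, close above hypoxia 3.

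Among large subunit genes, the members with the smallest p were mrpl35, mrpl21, mrpl30, mrpl27, mrpl28 and mrpl43. All except mrpl43 have bacterial counterparts. mrpl35 was 7.69, 8.14 and 8.23 in hypoxia brains, against 9.19, 8.43 and 8.95 in normoxia brains, a log2 difference of -0.84 (SE 0.25). mrpl30 was 7.61, 8.36 and 8.35 in hypoxia, against 9.42, 8.48 and 9.13 in normoxia, with a log2 difference of -0.90 (SE 0.30), the largest in size among the members. In both genes normoxia 2 was the lowest normoxia brain, 0.20 above the highest hypoxia brain for mrpl35 and 0.12 above it for mrpl30.

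mrpl27, whose bacterial counterpart reaches towards the peptidyl transferase centre, was 8.89, 9.16 and 9.66 in hypoxia, against 10.54, 9.75 and 9.86 in normoxia, a log2 difference of -0.81 (SE 0.28). mrpl21 was 8.03, 8.35 and 8.54 in hypoxia, against 9.31, 8.93 and 8.74 in normoxia, a log2 difference of -0.69 (SE 0.22). The groups stood apart in both genes, with hypoxia 3 the highest hypoxia brain. mrpl28 was 7.32, 8.06 and 8.08 in hypoxia, against 8.63, 8.34 and 8.54 in normoxia (-0.68, SE 0.24), and became -0.43 without hypoxia 1. The mitochondria-specific gene mrpl43 was 8.46, 9.09 and 8.86 in hypoxia, against 9.74, 9.18 and 9.46 in normoxia (-0.66, SE 0.23). None of these 6 genes passed, with a limma adjusted p = 0.72 for each. Among the other large subunit genes with an unadjusted p under 0.05 were mrpl33 (-0.90), mrpl17 (-0.73), mrpl40 (-0.49) and mrpl48 (-0.41), of which mrpl33 and mrpl17 overlapped between groups. In mrpl33 the values were 6.80, 7.18 and 7.29 in hypoxia, against 8.68, 7.15 and 8.14 in normoxia, with normoxia 2 below hypoxia 2 and hypoxia 3. mrpl15 (-0.39) and mrpl54 (-0.39) had no overlap at a larger p.

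**Figure D3:**
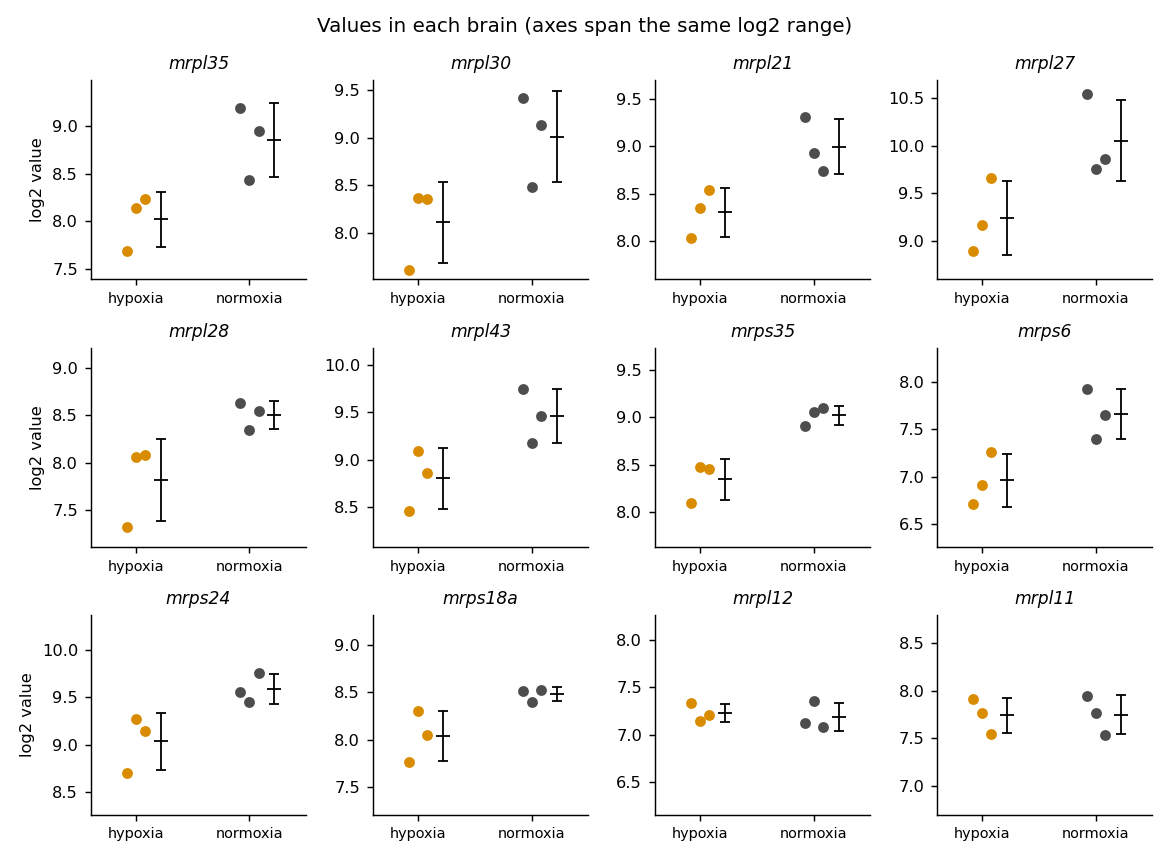
Each panel shows the log2 value of 1 gene in 3 hypoxia and 3 normoxia brains (points, in fish order 1 to 3), with the mean and SD of each group beside them. The first 10 panels show genes chosen for the smallest p within each subunit prefix. In them every hypoxia brain lies below every normoxia brain, which held in 19 of the 68 members (27.9%, against 9.01% of all genes). The next small subunit gene by p, mrps25, is not shown, and its groups overlapped. mrpl12 and mrpl11 have group means within 0.05 of each other.

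Of the 3 genes for the factor-binding stalk, which recruits translation factors to the large subunit, mrpl11 and mrpl12 had differences near 0 and mrpl10 had one of -0.26. mrpl12, which forms the mobile stalk, was 7.33, 7.14 and 7.21 in hypoxia, against 7.12, 7.35 and 7.08 in normoxia, a log2 difference of 0.04 (SE 0.18, limma adjusted p = 0.956). mrpl11, at the stalk base, was 7.91, 7.77 and 7.54 in hypoxia, against 7.94, 7.77 and 7.53 in normoxia, a log2 difference of -0.0067 (SE 0.20, limma adjusted p = 0.996). The values of mrpl11 in the 2 groups were almost the same set. mrpl10, which carries the copies of the stalk protein, was 7.51, 7.57 and 7.34 in hypoxia, against 7.96, 7.71 and 7.53 in normoxia, a log2 difference of -0.26 (SE 0.19, limma adjusted p = 0.757). The sign of the first 2 genes depended on processing: mrpl12 was -0.04 with array spread as a covariate, and mrpl11 was 0.13 with equal array medians.

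The 5 genes listed for proteins around the peptide exit tunnel all had lower hypoxia means, with a median log2 difference of -0.42 (-0.28 with equal array medians). Of all 68 members 64 were lower, with a median of -0.35. The tunnel list was made with the values known and is not complete. mrpl4, whose bacterial counterpart lines the tunnel, was 8.77, 8.91 and 8.97 in hypoxia, against 10.0, 9.14 and 9.33 in normoxia, a log2 difference of -0.61. mrpl45, which anchors the ribosome to the inner membrane, was 7.12, 6.83 and 7.32 in hypoxia, against 8.02, 6.93 and 7.69 in normoxia (-0.46, SE 0.29, limma adjusted p = 0.737). Its groups overlapped because normoxia 2 lay below hypoxia 1 and hypoxia 3, and the difference was -0.77 without normoxia 2 and -0.22 without normoxia 1. The other 3, mrpl22, mrpl23 and mrpl24, had log2 differences of -0.24, -0.37 and -0.42.

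The large subunit gene mrpl3, mutated in a human mitochondrial cardiomyopathy, was 7.23, 7.22 and 7.13 in hypoxia, against 7.73, 7.29 and 7.51 in normoxia, a log2 difference of -0.32 (SE 0.19, limma adjusted p = 0.736). mrpl58, a peptidyl-tRNA hydrolase that frees stalled ribosomes and is built into the large subunit, was 7.34, 7.02 and 7.13 in hypoxia, against 7.19, 7.33 and 7.08 in normoxia (-0.04, SE 0.18). Groups were apart in mrpl3 and overlapped in mrpl58. The gene with the lowest array signal, mrpl41, was 5.65, 5.61 and 5.95 in hypoxia, against 5.74, 6.17 and 5.85 in normoxia (-0.18, SE 0.20).

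Members with a higher mean in hypoxia were all of the large subunit and all within 0.05 of 0. They were mrpl12, mrpl20 (0.02), mrpl57 (0.01) and mrpl38 (0.0067), with limma adjusted p from 0.956 to 0.996. mrpl20, whose bacterial counterpart acts early in assembly of the large subunit, was 7.08, 6.94 and 7.12 in hypoxia, against 7.02, 6.86 and 7.19 in normoxia. mrpl57 averaged 6.34 ± 0.19 in hypoxia and 6.33 ± 0.39 in normoxia (SD, n = 3), and its 3 rows had log2 differences of 0.30, -0.02 and -0.24. Rows also disagreed in sign for mrpl47 (0.19 and -0.31) and for mrpl53 (0.02 and -0.30), so the means of -0.06 and -0.14 for these genes hide opposite rows. The 2 rows of mrps22 (-0.51 and -0.24) and of mrpl20 (0.04 and 0.0033) had the same sign.

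All 24 small subunit genes were lower on average in hypoxia, and with any single array left out they still were, while 22 of them were with equal array medians or with quantile normalization. mrps35, a mitochondria-specific protein of the subunit's head, had the smallest p of all members. It was 8.10, 8.48 and 8.46 in hypoxia brains, against 8.91, 9.06 and 9.10 in normoxia brains, a log2 difference of -0.68 (SE 0.19, limma adjusted p = 0.72). Every normoxia brain lay at least 0.43 above the highest hypoxia brain, and with 1 array left out the difference ran from -0.74 to -0.55. mrps6 was 6.71, 6.91 and 7.26 in hypoxia, against 7.92, 7.40 and 7.65 in normoxia (-0.70, SE 0.22). mrps24, whose bacterial counterpart lines the channel where mRNA enters, was 8.70, 9.27 and 9.15 in hypoxia, against 9.56, 9.45 and 9.76 in normoxia (-0.55, SE 0.21). Groups were apart in all 3 genes.

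mrps25 and mrps27 also had some of the smallest p among small subunit genes. mrps25 was 7.49, 7.96 and 7.84 in hypoxia, against 8.67, 7.93 and 8.30 in normoxia (-0.54, SE 0.24), with normoxia 2 below hypoxia 2. mrps27, a pentatricopeptide repeat protein, was 7.54, 7.65 and 7.87 in hypoxia, against 8.13, 7.99 and 8.05 in normoxia (-0.37, SE 0.18), with no overlap. mrps12, whose bacterial counterpart forms part of the decoding centre and carries streptomycin resistance mutations, was 6.86, 6.76 and 6.61 in hypoxia, against 6.96, 7.11 and 6.99 in normoxia (-0.28, SE 0.17, limma adjusted p = 0.737). Its groups were apart by 0.10.

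Also measured were mrps22, mrps34 and mrps2, which are mutated in human mitochondrial disease. mrps22 averaged 6.19 ± 0.17 in hypoxia and 6.57 ± 0.35 in normoxia (SD, n = 3), a log2 difference of -0.38 (SE 0.22). mrps34 was 7.65, 7.75 and 7.71 in hypoxia, against 7.71, 8.06 and 7.75 in normoxia (-0.14, SE 0.18). mrps2 was 9.20, 9.09 and 9.10 in hypoxia, against 9.25, 9.30 and 9.24 in normoxia (-0.13, SE 0.17), the smallest difference of any small subunit gene. The values of mrps2 did not overlap, and its sign was not kept under rescaling: with equal array medians mrps2 was 0.0067 and mrps34 0.0033, and quantile normalization gave 0.08 and 0.0028. mrps23, the small subunit gene with the lowest signal, averaged 5.98 ± 0.12 in hypoxia and 6.19 ± 0.21 in normoxia (SD, n = 3).

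Vertebrates carry 3 paralogs related to the bacterial S18 protein, of which mrps18a belongs to the large subunit despite its name and mrps18b and mrps18c to the small subunit. mrps18a was 7.77, 8.30 and 8.05 in hypoxia, against 8.52, 8.40 and 8.53 in normoxia (-0.44, SE 0.19), with no overlap. mrps18b was 7.49, 7.69 and 7.86 in hypoxia, against 8.62, 7.80 and 8.08 in normoxia (-0.49, SE 0.24), with normoxia 2 below hypoxia 3. These paralogs of different subunits had differences within 1 SE of each other, while mrps18c was not among the members. mrps30, also of the large subunit by structure, was 6.42, 6.67 and 6.67 in hypoxia, against 7.06, 6.95 and 6.67 in normoxia (-0.31, SE 0.19, limma adjusted p = 0.737).

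Members were also split by whether the mammalian mitoribosome nomenclature gives them the name of a bacterial protein, and the 2 sets had similar medians. In this nomenclature mrps18a and mrps18b count as mitochondria-specific, although they are related in sequence to bacterial S18. The 41 members with a bacterial counterpart had a median log2 difference of -0.32, with 39 lower, and the 27 mitochondria-specific members had one of -0.37, with 25 lower. With equal array medians these became -0.18, with 31 lower, and -0.23, with 22 lower. Groups did not overlap in 12 of the 41 and in 7 of the 27, against 9.01% of all genes. The score in normoxia 1 was 0.45 for members with a bacterial counterpart and 0.32 for mitochondria-specific ones, and in hypoxia 1 both stood at -0.28 and -0.27. This split was not tested.

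Differences varied with the level of the gene, for members and for all genes. Below a mean log2 value of 7 the 17 members had a median log2 difference of -0.22, where all genes had one of 0.07. From 7 to 8 the 28 members had a median of -0.30 and all genes -0.13, and at 8 and above the 23 members had a median of -0.49 and all genes -0.18. In each of these bins the members lay below the median of all genes. Of 40 members above the median level of all genes, 39 were lower and 15 did not overlap, against 76.8% and 11.7% of all genes above that level. The subunits differed most in the bin below 7, where 8 large subunit genes had a median of -0.08 and 9 small subunit genes one of -0.31. At 8 and above they were close, at -0.49 for 17 large and -0.49 for 6 small subunit genes.

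**Figure D4:**
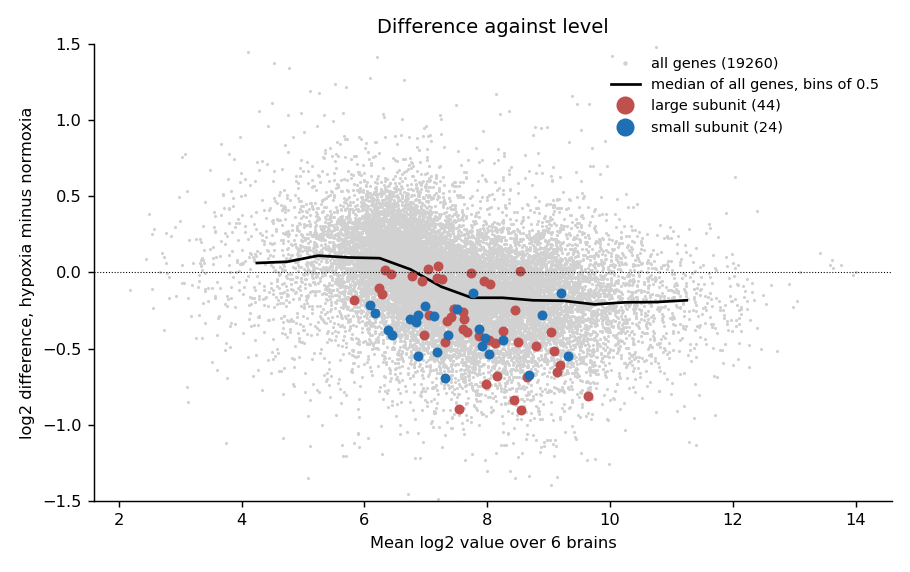
The log2 difference, hypoxia minus normoxia, of each gene is plotted against its mean log2 value over the 6 brains, with members coloured by subunit and the line giving the median of all genes in bins of 0.5 (15 genes lie outside the axis range). The median of all genes turns from above 0 at low levels to below 0 at high levels, and most members lie under the line.

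Other genes of mitochondrial translation were set beside the ribosomal proteins. 5 proteins of the same ribosome whose genes lack the prefix were measured, all lower, with a median log2 difference of -0.55 (-0.41 with equal array medians), and groups did not overlap in 2 of them, against 9.01% of all genes. aurkaip1, a small subunit protein, was 7.92, 8.62 and 8.29 in hypoxia, against 9.35, 8.69 and 9.19 in normoxia (-0.80, SE 0.25). ptcd3, a small subunit protein with pentatricopeptide repeats, was 7.10, 7.32 and 7.34 in hypoxia, against 8.09, 7.45 and 7.86 in normoxia (-0.55, SE 0.21). In both genes normoxia 2 was the normoxia brain nearest to hypoxia, as in mrpl30 and mrpl35. Neither passed, with a limma adjusted p = 0.72 for each.

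Factors that build or serve the ribosome had smaller medians. Of 27 genes of mitoribosome assembly and rRNA modification 21 were lower, with a median log2 difference of -0.14 (0 with equal array medians, where 13 were lower), and ngrn (-0.40) and slirp (-0.61), an RNA-binding protein that stabilises mitochondrial mRNAs, had the smallest p. Of 13 translation factor genes 10 were lower (median -0.18, or -0.04 with equal array medians), among them taco1 (-0.81), an activator of cytochrome oxidase subunit translation in mammals, and the elongation factor tufm (-0.47). For tufm the values were 8.79, 8.90 and 9.14 in hypoxia, against 9.67, 9.23 and 9.35 in normoxia. Of 19 aminoacyl-tRNA synthetase genes 14 were lower (median -0.19, or -0.05 with equal array medians), with cars2 (-0.58) and kars1 (-0.58, which also serves the cytosol) first by p. All 6 measured genes of mitochondrial transcription and genome maintenance were lower (median -0.30, or -0.16 with 4 of 6 lower at equal array medians), including tefm (-0.63) and tfam (-0.35). None of these genes passed. Shares of lower genes in assembly, translation factors and synthetases were 77.8%, 76.9% and 73.7%, against 61% of all genes. At mean log2 values of 7 to 8, where these 3 lists have their median level, 70.6% of all genes were lower.

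Of 18 genes of mitochondrial import and processing 15 were lower, with a median log2 difference of -0.19 (-0.05 with equal array medians), led by pmpca (-0.62), a subunit of the presequence peptidase, and tomm22 (-0.48), an import receptor. Of 13 regulators of mitochondrial biogenesis 10 were lower (median -0.16, or -0.02 with equal array medians), led by gabpb2a (-0.53) and gabpb1 (-0.40). These encode subunits of a factor that in mammals binds promoters of nuclear genes for mitochondrial proteins. No gene of either list passed, and the smallest limma adjusted p in each was 0.72. The shares lower were 83.3% and 76.9%, against 70.6% of all genes at mean log2 values of 7 to 8, where both lists have their median level. No row of the files named a protein encoded in the mitochondrial genome under the symbols searched, so the products of these ribosomes were not analysed here.

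Cytosolic ribosomal proteins and complex I subunits were also set beside the mitoribosome. Of 67 cytosolic ribosomal protein genes 48 were lower, with a median log2 difference of -0.11 that turned to 0.03 with equal array medians and to 0.07 with quantile normalization, and groups did not overlap in 2 lower and 2 higher genes, against 9.01% and 2.33% of all genes. Their score was -0.14, -0.02 and -0.02 in hypoxia, against -0.02, -0.16 and 0.36 in normoxia, so their highest brain was normoxia 3 and their lowest normoxia 2. rplp2 (-0.80) and rps27l (-0.85) had the smallest p among them, and neither passed. Of 36 genes listed as nuclear complex I subunits 34 were lower, with a median of -0.40 (-0.26 with equal array medians). The list includes ndufa4a and ndufa4b, whose mammalian counterpart is a subunit of cytochrome oxidase. The smallest p in it belonged to ndufa9b, higher in hypoxia (0.96, at a low signal of 4.91 against 3.95), and to ndufa6 (-1.26). Neither passed, with a limma adjusted p = 0.702 for each. Groups did not overlap in 13 lower and 1 higher complex I gene, and their score was -0.40, -0.14 and -0.02 in hypoxia, against 0.30, 0.01 and 0.25 in normoxia. The order of brains for complex I, with hypoxia 1 lowest and normoxia 1 highest, was that of the mitochondrial ribosomal proteins. The shares lower were 71.6% of the cytosolic ribosomal protein genes and 94.4% of the complex I list. Both lists have their median level at 8 and above, where 77.6% of all genes were lower. All these lists share the same 6 arrays, and no test compared them.

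**Figure D5:**
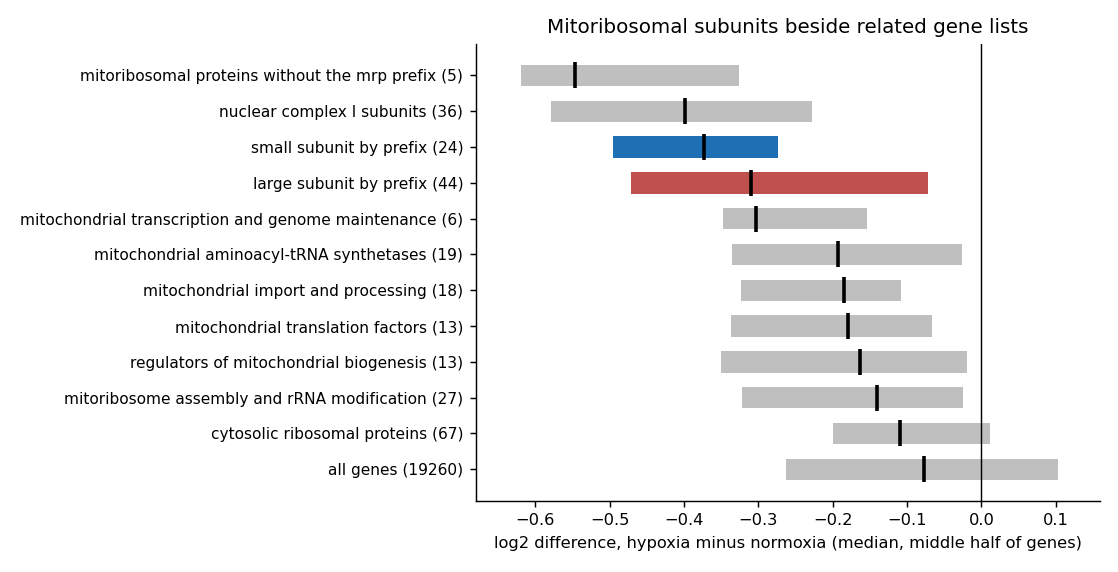
Bars span the middle range (25th to 75th percentile) and black marks the median of the log2 difference, hypoxia minus normoxia, over the genes of each list, with the number of genes in parentheses. Small (-0.37) and large (-0.31) subunit genes lie between the genes listed as complex I subunits (-0.40) and the lists of translation factors and synthetases. All genes have a median of -0.08.

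Markers of brain cells were present, with mean levels of 9.27 to 12.92 for 8 measured neuron markers. In whole brains, fewer cells of a type and less RNA per cell cannot be told apart. The neuron marker score was -0.25, 0.01 and 0.14 in hypoxia, against 0.42, -0.38 and 0.05 in normoxia. Scores in hypoxia ran from -0.47 to 0.02 for 7 radial glia and astroglia markers, from -0.28 to -0.15 for 4 oligodendrocyte markers and from -0.32 to -0.11 for 6 microglia and macrophage markers, against -0.27 to 0.68, -0.22 to 0.53 and -0.28 to 0.73 in normoxia. Median log2 differences of these 3 types were -0.45 (6 of 7 lower), -0.34 (3 of 4 lower) and -0.34 (6 of 6 lower). The median was -0.03 for neuron markers (4 of 8 lower) and -0.35 over the members. Normoxia 2 lay within the hypoxia range for these 3 types and above it for the mitochondrial ribosomal proteins. All 5 endothelial markers were lower, with scores of -0.09, -0.20 and -0.06 in hypoxia, against 0.19, 0.21 and -0.05 in normoxia, so that these groups did not overlap and normoxia 2 was highest. Of 4 erythrocyte markers 3 were lower, with scores of -0.26 to -0.01 in hypoxia and -0.10 to 0.49 in normoxia. All 6 skeletal muscle markers had higher means in hypoxia, with scores of -0.11 to 0.24 in hypoxia and -0.56 to 0.58 in normoxia. Pituitary markers scored 2.94 in hypoxia 3 and 3.15 in normoxia 3 and between -1.92 and -0.89 in the other brains. Without hypoxia 3 and normoxia 3 together, 63 members were lower, with medians of -0.36 for the large and -0.45 for the small subunit. The part of cell composition in the result was not tested.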

How the data were processed

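The deposited log2 values of 6 arrays (3 hypoxia, 3 normoxia, grouped by sample titles) were used. Per the series text, the authors corrected background with RMA and applied quantile normalization; Affymetrix Expression Console is named in the submitters' processing notes, and no source here gives versions, probe set level or filters. The log2 scale was judged from the values, which ran from 1.62 to 14.34. The platform annotation gave 20806 of 75212 rows a single gene, 855 several and 53551 none; rows naming 1 gene were averaged, and 20323 matched by Entrez identifier, which changed 1 symbol. limma 3.58.1 in R 4.3.3 (lmFit, eBayes, no covariate) was fitted to all 19260 genes with Benjamini-Hochberg adjustment at 0.05. The procedure was run on simulated data with independent noise per gene and added changes larger than any difference among the members. That run does not measure power for differences of the members' size. The fish are biological replicates per the series text. Precision is limited by having 6 arrays.

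The members and lists were chosen with earlier results of these data known. Genes were named by a rule: per subunit the 6 lower and 3 higher with the smallest p, the highest and lowest signal, genes fixed by role, and genes whose rows disagree in sign; and 2 per related list. mrpl4, mrpl15, mrpl17, mrpl22, mrpl23, mrpl24, mrpl33, mrpl36, mrpl38, mrpl40, mrpl46, mrpl48 and mrpl54 were named after their values were seen. Array signals of different genes are not amounts of RNA. Other settings tried were a replicate block, omission of each array, equal medians, quantile normalization, the brightest row, a level of at least 6, array spread as a covariate, a trend with robust moderation and subunits by structure. Leaving out hypoxia 3 and normoxia 3 together was added after seeing the data. Sequences were not analysed here.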

Additional observations from a re-analysis of the deposited data

How the results depend on the processing

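No member passed the threshold in any fit, and the lowest adjusted p of a member was 0.0836, without normoxia 2. Over all genes, where 1 passed, omitting 1 array gave 0 to 17, quantile normalization gave 2, and there were 0 among genes with a mean of at least 6, 0 with an intensity trend and robust moderation, and 0 without hypoxia 3 and normoxia 3 together. With 1 array left out the count of lower members ran from 60 to 66, the large subunit median from -0.41 to -0.22 and the small subunit median from -0.45 to -0.21. The difference of large minus small subunit scores between groups, 0.04, was 0.066 after quantile normalization, where the groups overlapped. With subunits by structure it was 0.04 and the groups overlapped too. It was 0.029 without hypoxia 3 and normoxia 3 together. With equal array medians the subunit medians were -0.17 and -0.23, with quantile normalization -0.19 and -0.29, and with array spread as a covariate -0.22 and -0.23. The replicate block, fitted because titles share numbers, gave 1 call over all genes. In this balanced design a block cannot change the differences, so the 64 lower members were the same by construction. The block gave 12 members at an unadjusted p under 0.05, against 16. Same-numbered brains correlated at -0.34, 0.10 and 0.20, and these correlations cannot show whether the numbers mark a pairing. Among the genes named by the rule, signs turned in those near 0: mrpl11 (0.13 with equal medians, 0.17 with quantile normalization), mrpl12 (-0.037 with array spread), mrpl47 (0.083 with equal medians), mrpl53 (0.02 with the brightest row), mrpl57 (-0.015 with quantile normalization, -0.02 with the brightest row, -0.077 without hypoxia 3 and normoxia 3), mrpl58 (0.10 and 0.043 with equal medians and quantile normalization), mrps2 (0.0067 and 0.076) and mrps34 (0.0033 and 0.0028). Among other members, signs also turned further from 0. mrpl22 (-0.24) was 0.22 without normoxia 1 and 0.13 with array spread. mrpl46 (-0.24) was 0.032 without normoxia 1, and mrpl36 (-0.30) was 0.031 with array spread. With 1 array left out, mrpl11 ran from -0.12 to 0.093, mrpl12 from -0.0083 to 0.13, mrpl20 from -0.058 to 0.10, mrpl47 from -0.16 to 0.062, mrpl53 from -0.45 to 0.052, mrpl57 from -0.15 to 0.24 and mrpl58 from -0.13 to 0.035. The causes were not tested. Of 419 values of the members named by the rule under these alternatives, 30 turned sign. Many of the 419 could not turn. The replicate block, the trend with robust moderation and the level of at least 6 leave each difference as it was. The brightest row does so for genes with a single row. The count is therefore no measure of stability. Genes named after their values were seen were not counted here.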

Other observations

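Array rows that name a mitochondrial ribosomal protein gene together with another gene were left out of the members, and 8 such rows were measured. The rows shared by mrpl51 and tfpt had the largest differences: 1 averaged 8.11 in hypoxia and 8.96 in normoxia (-0.85), and the other averaged 6.74 in hypoxia and 7.34 in normoxia (-0.60). The row shared by rsph9 and mrps18a had a log2 difference of -0.33, where mrps18a alone had -0.44, and that shared by abcf1 and mrps18b one of -0.12, where mrps18b alone had -0.49. Rows shared by abraxas1 and mrps18c (-0.0067), by mrpl39 and CENPQ (-0.01), by agfg1a and mrpl44 (-0.14) and by mrps11 and mrpl46 (-0.20) had smaller differences. Which gene of each pair gave the signal cannot be told apart in these rows.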
